A study of Mus musculus with 6 samples.

Results

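The IκB genes examined here encode the 6 inhibitor-of-NF-κB proteins listed by name as Nfkbiz, Bcl3, Nfkbid, Nfkbia, Nfkbib and Nfkbie, which were found as 6 of the 43043 genes in each table. They were listed by symbol, and earlier results of these data were known when they were chosen. Reads were sequenced from total RNA of D4M-3A cells, a mouse melanoma line with mutant Braf, in 3 samples of control cells (Ctrl) and 3 of cells with Nfkbiz knocked out (Nfkbiz KO). The construct of the Ctrl cells was empty and that of the Nfkbiz KO cells held a CRISPR guide against Nfkbiz, both introduced by lentivirus and followed by puromycin selection, so both groups share transduction and selection. Whether the knockout line is a clone or a pool is not given in the sources used here. The comparison asks how the level of each IκB transcript differed when the gene for IκBζ was targeted.

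NF-κB is a family of dimeric transcription factors that drive inflammatory and survival genes. The classical IκB proteins, IκBα (Nfkbia), IκBβ (Nfkbib) and IκBε (Nfkbie), bind NF-κB dimers through ankyrin repeats and hold them in the cytoplasm. Phosphorylation by the IKK complex marks them for ubiquitination and degradation, which frees the dimers. The atypical members IκBζ (Nfkbiz), Bcl-3 (Bcl3) and IκBNS (Nfkbid) also have ankyrin repeats but act mainly in the nucleus, where they join p50 or p52 subunits on DNA and raise or lower transcription of selected genes. Several IκB genes are themselves NF-κB targets, which gives the pathway feedback.

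The promoters of the members were searched for the motifs of NF-κB and of 2 factors that work beside it. RefSeq promoter windows, from 250 bases before to 50 bases after a start, were found by symbol for 5 of the 6 members (Nfkbiz had no entry). They gave 7 windows, since Nfkbid has 3 starts, and each matched GRCm39 exactly at 1 place. The windows of Bcl3 (chr7:19556631-19556930) and Nfkbib (chr7:28466020-28466319) lie inside the GENCODE spans of these genes. Their annotated 5′ ends, chr7:19557570 and chr7:28466937, were not searched. The κB consensus was searched on both strands and matched in 4 of the 7 windows, against 4.51% of all 32851 windows of this length. The matches lay in the windows of Bcl3, Nfkbia, Nfkbie and the second start of Nfkbid, and none was found in those of Nfkbib or the other Nfkbid starts. Their 30-base surroundings are shown because they allow the letters of the members that fell, rose or did not pass the test to be compared, each 5′ to 3′ on the strand of the gene in GRCm39 with the κB match in capitals. They lie at chr7:19556659-19556688 (Bcl3, minus strand), chr12:55539442-55539471 (Nfkbia, minus strand), chr17:45866510-45866539 (Nfkbie, plus strand), and chr7:30121595-30121624 and chr7:30121640-30121669 (Nfkbid, plus strand).
Bcl3: tcggcggcagGGGAAGTCCCgctgcccggc
Nfkbia: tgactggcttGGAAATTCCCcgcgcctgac
Nfkbie: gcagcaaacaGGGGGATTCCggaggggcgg
Nfkbid, first match: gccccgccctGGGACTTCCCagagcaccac
Nfkbid, second match: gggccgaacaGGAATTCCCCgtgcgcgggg

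The Bcl3 match spanned 3 to 12, the Nfkbia match -29 to -20 and the Nfkbie match -106 to -97, counted from the RefSeq start as +1. Those of Nfkbid spanned -226 to -217 and -181 to -172. Over all genes, 0.554% of windows held 2 or more κB matches, as the second Nfkbid window did. The STAT motif TTCNNNGAA, searched on both strands, was found in 2 of the 7 windows, both of Nfkbid, and in 8.3% of all windows. The AP-1 motif TGANTCA was found in 1, that of Nfkbie, and in 7.81% of all windows. No motif overlapped another here. A match describes letters in the window and not a bound site. The 250 bases before the start follow for the 2 members with matches that passed the test below in opposite directions, Bcl3 (chr7:19556681-19556930, minus strand) and Nfkbie (chr17:45866376-45866625, plus strand), with κB matches in capitals. The Bcl3 stretch has none, as its match lies after the start.
Bcl3: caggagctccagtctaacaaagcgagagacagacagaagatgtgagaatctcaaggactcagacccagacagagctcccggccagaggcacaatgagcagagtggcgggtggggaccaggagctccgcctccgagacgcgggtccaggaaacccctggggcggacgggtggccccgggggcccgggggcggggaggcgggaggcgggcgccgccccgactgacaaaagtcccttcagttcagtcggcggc
Nfkbie: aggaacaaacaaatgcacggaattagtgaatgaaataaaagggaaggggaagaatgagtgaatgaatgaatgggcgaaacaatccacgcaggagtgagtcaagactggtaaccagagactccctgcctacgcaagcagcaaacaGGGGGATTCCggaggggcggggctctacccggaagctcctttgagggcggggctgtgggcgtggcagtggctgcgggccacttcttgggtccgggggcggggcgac

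**Figure D1:**
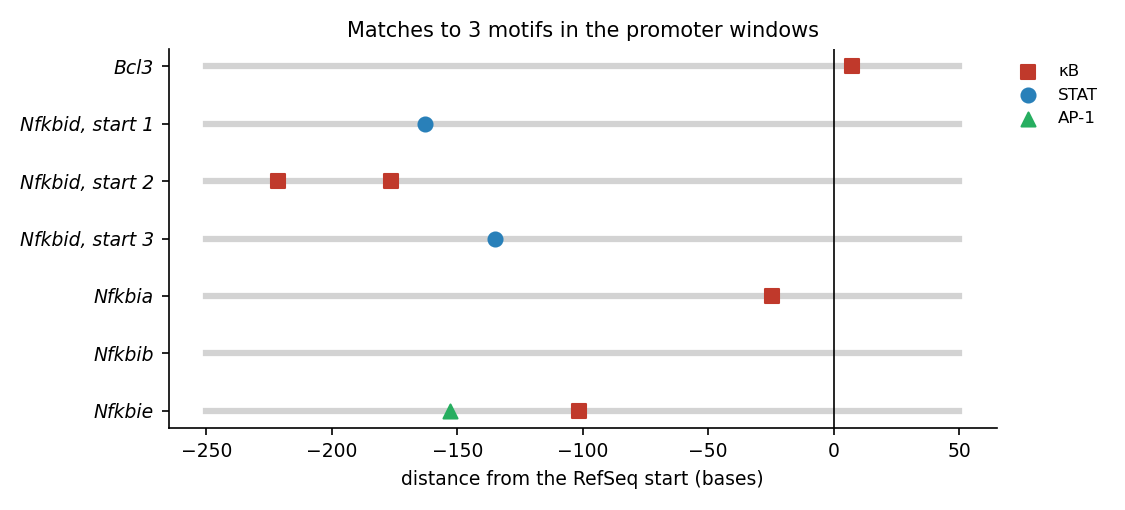
Matches to the κB, STAT and AP-1 motifs in the 7 promoter windows of 5 members. The x axis is the distance in bases from the RefSeq start, grey lines are the windows and symbols are the matches. κB matches stand in 4 windows, and the Nfkbib window holds no match to any of the 3 motifs.

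Between 32219900 and 44927203 reads were counted on genes per sample, of which 96.5% to 96.9% mapped to 1 place only. Pairs of Ctrl samples differed more from each other (chi-square per degree of freedom 25.8 to 65.9) than pairs of Nfkbiz KO samples (3.41 to 5.89), and none were duplicates. The defining melanocyte genes Sox10 and Tyr had 0 reads in all 6 samples, and 7 of 8 melanocyte markers were under 1 TPM (abundance scaled for transcript length and depth) in every sample. The summed level of those 8 was 1.31 to 1.80 TPM in Ctrl and 1.27 to 1.98 TPM in Nfkbiz KO samples, so the melanocytic origin in the label was not visible in these markers. The 6 leukocyte markers were under 1 TPM in every sample, whereas Col1a1, Pdgfra and Pdgfrb, genes of fibroblasts and pericytes, were expressed. Col1a1 was at 339 to 389 TPM in Ctrl and 243 to 274 TPM in Nfkbiz KO samples, while Pdgfra (32.8 to 40.5 and 38.4 to 40.2 TPM) and Pdgfrb (39.9 to 50.5 and 48.5 to 53.8 TPM) overlapped between the groups, and the 3 summed to 412 to 479 and 331 to 366 TPM. The 2 endothelial markers summed to 0.530 to 0.796 TPM in Ctrl and 1.31 to 1.83 TPM in Nfkbiz KO samples, with Cdh5 at 0.397 to 0.671 and 1.21 to 1.83 TPM and Pecam1 at 0.0365 to 0.134 and 0 to 0.116 TPM. Of 3 keratinocyte markers 2 were under 1 TPM in every sample, with sums of 2.45 to 3.41 and 2.47 to 2.51 TPM. The part of the Col1a1 and Cdh5 differences in the results was not tested.

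Bcl3 and Nfkbiz transcripts fell in Nfkbiz KO cells, Nfkbie rose, and the tests of Nfkbia, Nfkbib and Nfkbid missed the threshold. All 6 members passed the filter on low counts and were tested with 14419 genes by edgeR's quasi-likelihood test on raw gene reads. At an adjusted p of 0.05 or less, 3 of the 6 members changed, against 36.6% of all genes tested, 1 higher (18.2% of all genes) and 2 lower (18.4%). Only Bcl3 also passed the full threshold, which adds a fold change above 2 and means more than 4 TPM apart, in a direction in which 1.03% of all genes did. The median log2 fold change of the 6 members was -0.05, beside -0.02 over all genes tested. Groups did not overlap in gene reads scaled to library size with TMM factors (CPM) for 5 of the 6 members, against 48.4% of all genes.

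**Figure D2:**
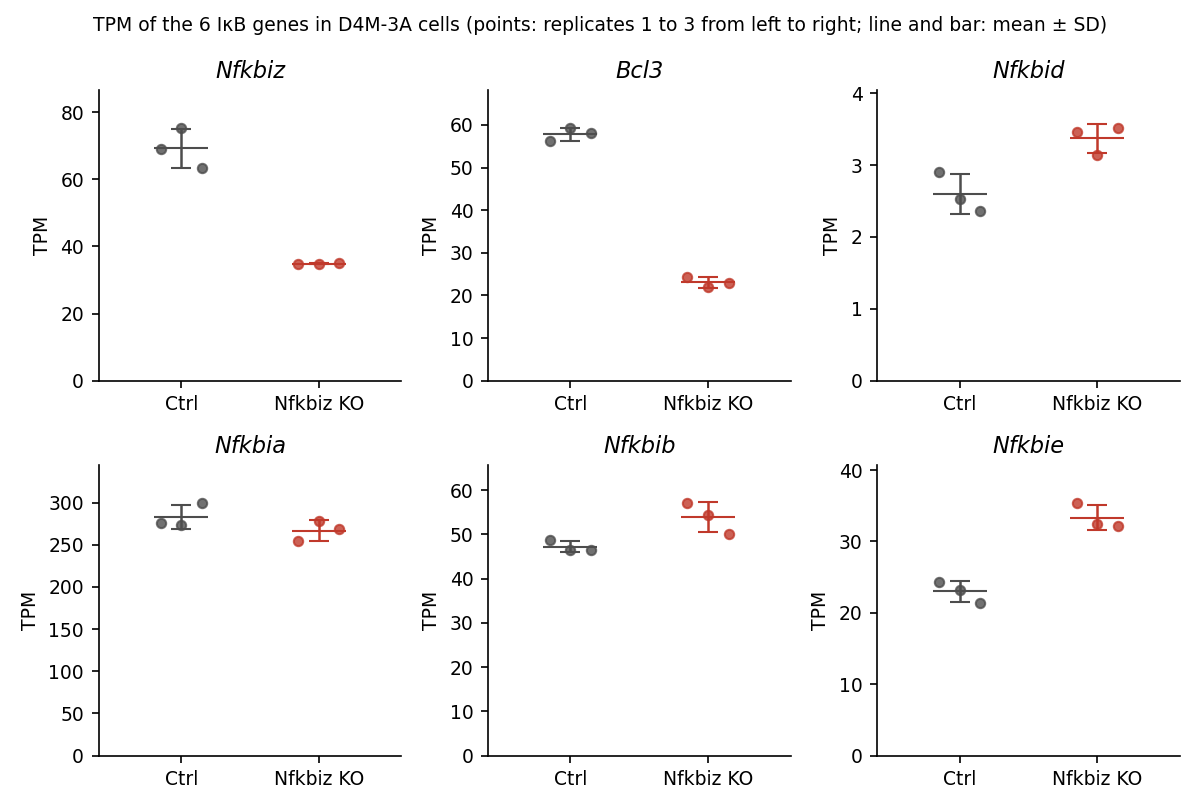
TPM of each IκB gene, a panel a gene with its own y axis from 0. Points are replicates 1 to 3 of Ctrl (grey) and Nfkbiz KO (red), and line and bar are the mean ± SD over 3 samples. Nfkbiz and Bcl3 sit lower and Nfkbie, Nfkbid and Nfkbib higher in all Nfkbiz KO samples, while the groups of Nfkbia overlap.

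Nfkbiz encodes IκBζ, an inducible nuclear co-regulator known from responses to interleukin-1, interleukin-17 and Toll-like receptors. It spans chr16:55631738-55659262 on the minus strand of GRCm39. The Ctrl replicates measured 69.1, 75.2 and 63.4 TPM and the Nfkbiz KO replicates 34.8, 34.7 and 35.1 TPM. The groups were far apart, and the spread within Nfkbiz KO (SD 0.245 TPM) was much narrower than within Ctrl (SD 5.87 TPM). Its log2 fold change was -0.98 (SE 0.056, 95% interval -1.10 to -0.86, adjusted p = 5.98e-08 edgeR quasi-likelihood test, Benjamini-Hochberg adjusted). It therefore fell just short of the 2-fold limit, and without Ctrl replicate 3 it passed (log2 fold change -1.01), so that 2 members then met the full threshold. The targeted gene kept 50.4% of its Ctrl TPM. This is a transcript level and does not measure the loss of IκBζ protein, which the study checked by immunoblot. Across melanoma lines the study found no correlation between IκBζ protein and its mRNA. Editing of a gene need not remove its transcript, these reads do not separate edited from unedited copies, and in a bulk culture fewer cells with the transcript and less transcript per cell cannot be told apart.

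Bcl3 encodes Bcl-3, a nuclear partner of p50 and p52 homodimers first known as a gene at translocations in B-cell leukemia. It spans chr7:19541553-19557570 on the minus strand. It had 56.2, 59.2 and 58.1 TPM in the Ctrl replicates and 24.4, 22.0 and 22.8 TPM in the Nfkbiz KO replicates. All Ctrl values were above all Nfkbiz KO values, with a narrow spread in both groups (SD 1.51 and 1.22 TPM). The log2 fold change was -1.45 (SE 0.064, 95% interval -1.59 to -1.31, adjusted p = 5.89e-09 edgeR quasi-likelihood test, Benjamini-Hochberg adjusted), the largest of the family in size. Between 93.4% and 95.6% of Bcl3 reads were unique, the lowest share of the 6 members, and unique reads alone gave -1.46. An opposite-strand noncoding gene, Gm16175, overlaps Bcl3 and had 0 reads in every sample.

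Nfkbid encodes IκBNS, a nuclear member known from T and B cells and the least abundant of the 6 here, at chr7:30121150-30128171 on the plus strand. The Ctrl samples had 2.90, 2.53 and 2.35 TPM and the Nfkbiz KO samples 3.46, 3.14 and 3.51 TPM. The values did not overlap, but each rested on only 74 to 122 reads. The log2 fold change was 0.34 with a wide 95% interval of -0.03 to 0.71 (SE 0.17, adjusted p = 0.14 edgeR quasi-likelihood test, Benjamini-Hochberg adjusted). limma on log2(TPM + 1) called it higher (0.28, adjusted p = 0.043), within adjusted p of 0.043 to 0.327 over 14 alternatives.

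Among the classical members, Nfkbie rose. It encodes IκBε, an inhibitor of RelA and c-Rel dimers, at chr17:45866585-45874661 on the plus strand. It had 24.4, 23.2 and 21.4 TPM in Ctrl and 35.3, 32.5 and 32.2 TPM in Nfkbiz KO replicates. The lowest Nfkbiz KO value lay well above the highest Ctrl value. The log2 fold change was 0.41 (SE 0.068, 95% interval 0.26 to 0.56, adjusted p = 0.000516 edgeR quasi-likelihood test, Benjamini-Hochberg adjusted).

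Nfkbia encodes IκBα, the inhibitor whose rapid resynthesis ends an NF-κB response, at chr12:55535332-55539432 on the minus strand. It had 275, 274 and 299 TPM in Ctrl and 254, 278 and 269 TPM in Nfkbiz KO replicates. These values overlapped, with Ctrl replicate 3 the highest. On gene reads the groups came close without overlapping, at 126.8 CPM for the lowest Ctrl and 126.6 CPM for the highest Nfkbiz KO sample. The log2 fold change was -0.18 (SE 0.070, 95% interval -0.33 to -0.03, adjusted p = 0.0608 edgeR quasi-likelihood test, Benjamini-Hochberg adjusted). Its call depended on the setting, with adjusted p from 0.0189, reached without Ctrl replicate 2 (log2 fold change -0.23), to 0.28 over 14 alternatives. Without Ctrl replicate 3 the log2 fold change was -0.10, and limma on TPM gave -0.08.

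Nfkbib encodes IκBβ, a slower-turning-over inhibitor, at chr7:28457486-28466937 on the minus strand. It had 48.7, 46.5 and 46.5 TPM in Ctrl and 57.0, 54.5 and 50.2 TPM in Nfkbiz KO replicates. The TPM groups did not overlap, but those of gene reads did, with 29.7 to 33.1 CPM in Ctrl and 31.3 to 35.4 CPM in Nfkbiz KO samples. The log2 fold change on gene reads was 0.08 (SE 0.068, 95% interval -0.07 to 0.23, adjusted p = 0.388 edgeR quasi-likelihood test, Benjamini-Hochberg adjusted). Without Ctrl replicate 2 it was 0.04, without Nfkbiz KO replicate 1 0.05 and without Nfkbiz KO replicate 3 0.13, and limma on log2(TPM + 1) gave 0.19 (adjusted p = 0.0509), within adjusted p of 0.0509 to 0.725 over 14 alternatives. Sirt2, on the opposite strand with 1519 to 2011 reads a sample, shares 778 bases of span and 42 exon bases with Nfkbib. Reads of the 2 genes cannot be told apart there since both strands were counted. Opposite-strand Ccer2 shares 314 exon bases but had only 1 to 11 reads, and the noncoding Gm71901 shares 338 and was not counted.

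For each member but Nfkbib, a two-sided exact permutation test on log2 CPM gave p = 0.1, the smallest that 3 samples against 3 allow. For Nfkbib the same exact permutation test gave p = 0.4.

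**Figure D3:**
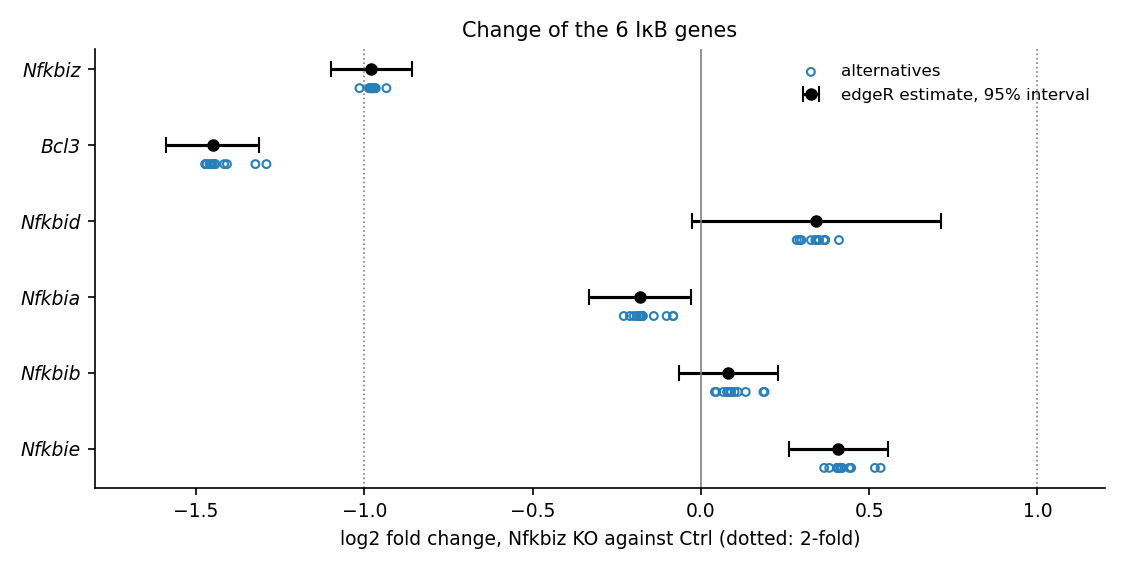
Log2 fold change of each IκB gene in Nfkbiz KO against Ctrl on the x axis. Black points and bars are the edgeR estimate on gene reads with its 95% interval, blue circles are the 14 alternatives, and dotted lines mark a 2-fold change. Bcl3 lies past the lower line at -1.45, Nfkbiz at it, and the intervals of Nfkbid and Nfkbib reach across 0.

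The order of levels per length changed between the groups. In Ctrl cells it ran from Nfkbia (283 ± 14.3 TPM, SD, n = 3) to Nfkbiz (69.2 ± 5.87), Bcl3 (57.8 ± 1.51), Nfkbib (47.2 ± 1.25), Nfkbie (23.0 ± 1.47) and Nfkbid (2.59 ± 0.279), and no neighbours in that order overlapped. In Nfkbiz KO cells Nfkbia (267 ± 12.1) was followed by Nfkbib (53.9 ± 3.46), Nfkbiz (34.9 ± 0.245), Nfkbie (33.3 ± 1.74), Bcl3 (23.1 ± 1.22) and Nfkbid (3.37 ± 0.199). Nfkbiz and Nfkbie were then not separated by their spread. Among all genes with a level above 0, Nfkbia stood at percentile 96.8 in Ctrl and 96.3 in Nfkbiz KO cells. Bcl3 moved from percentile 82.1 to 61.7 and Nfkbiz from 85.0 to 70.9, while Nfkbie moved from 63.5 to 69.9.

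Summed over the family, 476, 480 and 491 TPM were measured in the Ctrl samples and 409, 425 and 413 TPM in the Nfkbiz KO samples, a ratio of group means of 0.861. On RPKM that ratio was 0.820. The classical members together were level in TPM, at 353 ± 12.5 TPM (SD, n = 3) in Ctrl and 354 ± 9.60 TPM in Nfkbiz KO, with overlapping groups. For the median gene the log2 change of TPM ran 0.10 above that of gene reads, so a sum level in TPM need not be level on gene reads. The atypical members together measured 130 ± 6.62 and 61.3 ± 1.45 TPM. Their share of the family sum was 26.9%, 28.5% and 25.2% in Ctrl and 15.3%, 14.1% and 14.9% in Nfkbiz KO samples. Within that, Nfkbiz made up 14.4% ± 1.37 and 8.40% ± 0.201 of the sum and Bcl3 12.0% ± 0.295 and 5.56% ± 0.395. Nfkbia held 58.6% ± 2.09 in Ctrl and 64.2% ± 1.85 in Nfkbiz KO samples, and Nfkbie 4.77% ± 0.375 and 8.03% ± 0.535. Shares sum to the whole, so the fall of some raises the others.

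**Figure D4:**
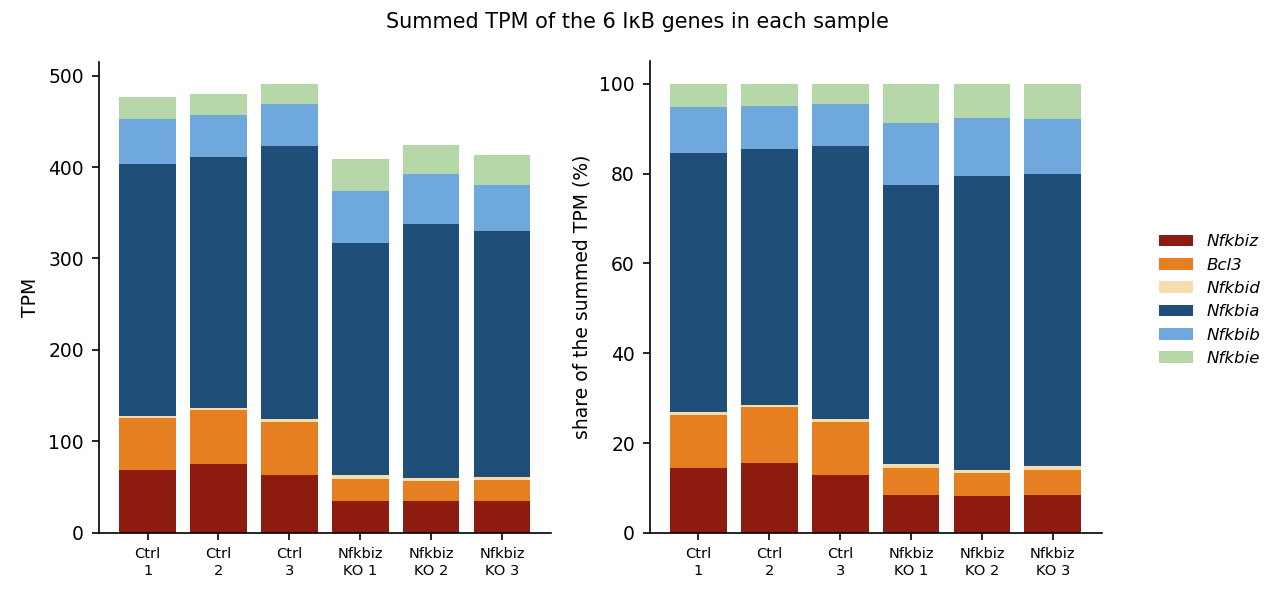
TPM of the 6 IκB genes stacked for each of the 6 samples (left, in TPM) and as a share of their sum (right, in percent). The 3 Nfkbiz KO bars are lower than the 3 Ctrl bars, and the Nfkbiz and Bcl3 parts at their base are smaller, while the part of Nfkbia is the largest in every sample.

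Ratios between members within a sample do not depend on the depth of that sample. Bcl3 exceeded Nfkbie 2.31-, 2.55- and 2.71-fold in the Ctrl samples and was below it in the Nfkbiz KO samples, at ratios of 0.690, 0.676 and 0.710. The ratio of Nfkbia to Nfkbiz was 3.98, 3.64 and 4.71 in Ctrl and 7.29, 8.01 and 7.65 in Nfkbiz KO samples. Nfkbiz and Bcl3 both fell, but by unequal amounts, since the ratio of Nfkbiz to Bcl3 was 1.23, 1.27 and 1.09 in Ctrl and 1.43, 1.58 and 1.54 in Nfkbiz KO samples. Of 15 pairs of members, 13 had ratios that did not overlap between the groups. For each of them a two-sided exact permutation test gave p = 0.1, the smallest possible, and 0.115 after Benjamini-Hochberg adjustment over the 15 pairs, so none passed 0.05. The other 2 were Nfkbid to Nfkbib and Nfkbid to Nfkbie (exact permutation p = 0.2).

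TPM was computed from exon reads, whereas gene reads include those outside exons. TPM also sums to the same total in every sample, whereas CPM was scaled with TMM factors, which can shift all genes together. The 2 changes need therefore not be equal, and the part of each difference was not tested. Over 13711 genes the log2 change of TPM minus that of CPM had a median of 0.10, with a 10th percentile of 0.05 and a 90th of 0.16. For Bcl3 it was 0.12, for Nfkbia 0.10, for Nfkbib 0.11 and for Nfkbie 0.13, all near that median. For Nfkbiz it was -0.01 (exact permutation p = 0.8) and for Nfkbid 0.04 (exact permutation p = 0.6), both below the 10th percentile and both with overlapping groups. The fall of Nfkbiz was -0.99 on TPM and -0.98 on CPM, without the shift of 0.10 seen for the median gene. These permutation tests compare the groups with no shift and not with that median, so they do not say whether Nfkbiz departs from it.

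Around the family, 37 genes that bind, modify or work with IκB proteins were all tested. These genes were chosen with earlier results of these data known, so the shares changed among them may reflect that choice. In Nfkbiz KO cells 7 rose and 11 fell (48.6% changed, beside 36.6% of all genes tested, 18.2% higher and 18.4% lower), and 0 passed the full threshold by edgeR's quasi-likelihood test. limma on log2(TPM + 1) called 7 of them higher and 4 lower. Only 5 of these 7 were among those that edgeR called higher: Rel and Rc3h1 were not called, and Rela and Tbl1xr1 were. Over all 14419 genes limma called 3004 higher and 1327 lower, where edgeR on gene reads called 2627 higher and 2647 lower. Without Nfkbiz KO replicate 1, 2 or 3 the counts of the 37 fell to 3, 4 and 4 higher and 6, 6 and 6 lower, and those over all genes to 1962, 1989 and 1956 higher and 1841, 1931 and 1842 lower. Under all 14 alternatives 3 genes kept their call as higher (Relb, Nfkb2 and Ikbkg) and 4 as lower (Ikbke, Zc3h12a, Stat3 and Hdac3).

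Of the 5 NF-κB subunits, the dimer partners that IκB proteins bind, 3 rose and 1 fell, where 18.2% of all genes were called higher and 18.4% lower. Nfkb2, which encodes p100 and p52, went from 112 ± 11.0 to 155 ± 3.58 TPM (SD, n = 3; log2 fold change on gene reads 0.37, SE 0.058). Relb, the usual partner of p52, had a log2 fold change of 0.27 (SE 0.059) and Rel 0.31 (SE 0.098). Nfkb1, which encodes p105 and p50, fell by 0.18 on the log2 scale (SE 0.056), and Rela was at 0.09 (SE 0.053) without passing the test. On TPM these calls differed. There limma on log2(TPM + 1) called Rela higher (0.19, adjusted p = 0.0305), but neither Rel (0.35, adjusted p = 0.0756) nor Nfkb1 (-0.06, adjusted p = 0.509).

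Of the 10 IKK kinases and adaptors, which include the kinases that mark classical IκB proteins for degradation, 2 rose, near the 18.2% over all genes, and 4 fell (18.4% over all genes). Ikbke, an IKK-related kinase, went from 9.52 ± 0.107 to 6.18 ± 0.175 TPM (log2 fold change -0.77, SE 0.061, adjusted p = 8.98e-07 by edgeR). Ikbkg, the scaffold NEMO, rose from 17.6 ± 1.76 to 24.9 ± 0.159 TPM (log2 fold change 0.36, SE 0.056). The kinase genes Ikbkb (-0.22) and Map3k14 (-0.34) and the adaptor Tab1 fell, and the adaptor Tab2 (0.20) rose. Of the 5 genes of the IκB ubiquitin ligase 1 changed (20%, beside 36.6% of all genes tested). That gene, Btrc, fell (-0.22), from 5.56 ± 0.0752 to 5.08 ± 0.167 TPM, and encodes a subunit that recognizes phosphorylated IκB. With limma on log2(TPM + 1) Btrc was not called (adjusted p = 0.185). Fbxw11, of the same list, did not pass the test (log2 fold change 0.05), at 93.3 ± 6.52 and 105 ± 0.502 TPM.

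Of 6 regulators of Nfkbiz mRNA or Bcl-3 protein, 2 rose and 1 fell, so 50% changed, beside 36.6% over all genes. Zc3h12a, which encodes the RNase Regnase-1, fell from 71.8 ± 3.77 to 55.9 ± 2.25 TPM (log2 fold change -0.48, SE 0.054). Rc3h1 (0.20), which encodes Roquin-1, and the kinase gene Gsk3b (0.17) rose. Of 7 nuclear partners of atypical IκB proteins, 3 fell and 0 rose, so 42.9% changed, near the 36.6% over all genes. Stat3 went from 45.9 ± 3.08 to 31.7 ± 0.867 TPM (log2 fold change -0.63, SE 0.053, adjusted p = 1.55e-06 by edgeR) and the deacetylase gene Hdac3 from 84.9 ± 0.908 to 71.5 ± 1.09 TPM (-0.34, SE 0.054). Smarca4, which encodes a chromatin remodelling ATPase, had -0.18 (SE 0.051). Of 4 other IκB-binding or IκB-related genes 1 changed (25%, beside 36.6% over all genes). Commd1 fell (-0.20, SE 0.065), and Nkiras1, Nkiras2 and Nfkbil1 did not pass the test.

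**Figure D5:**
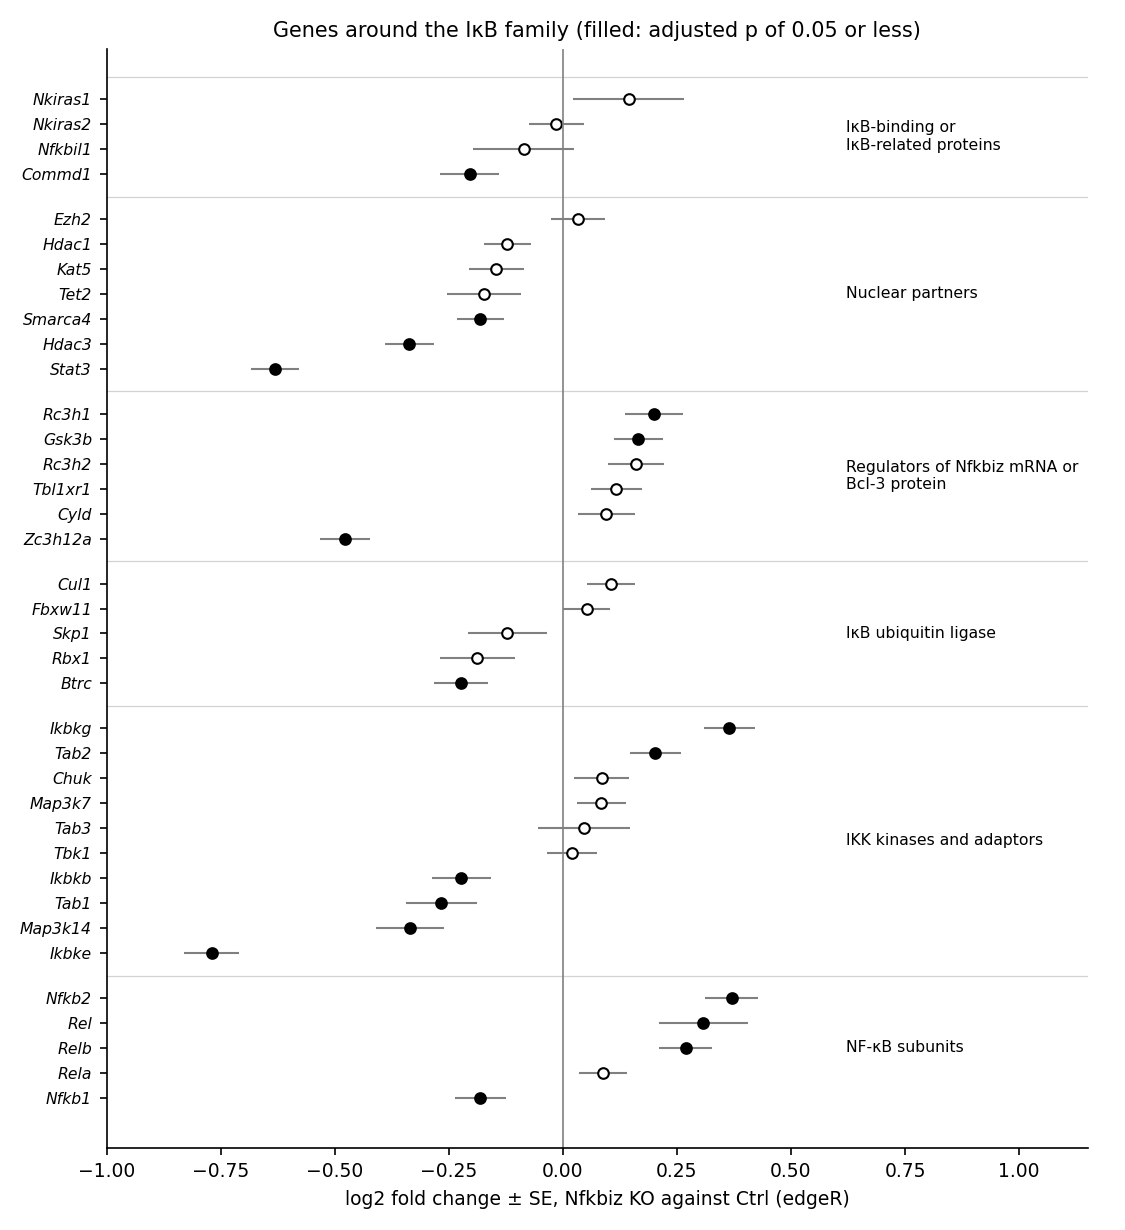
Log2 fold change ± SE (edgeR, gene reads) of the 37 genes around the IκB family on the x axis, grouped by list. Filled points passed an adjusted p of 0.05 or less, 7 of them to the right of 0 and 11 to the left. Ikbke and Stat3 lie farthest to the left, at -0.77 and -0.63, and no point reaches a 2-fold change.

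Genes whose pattern over the 6 samples was most like a member's were sought among 10718 genes with at least 100 reads in every sample, by the root-mean-square distance of centred log2 CPM. Nearest to Nfkbiz were the Rab GTPase gene Rab6b, the G protein subunit gene Gng2 and the zinc finger gene Zfp57, at distances of 0.046, 0.051 and 0.056. Rab6b went from 69.9 ± 6.53 to 36.4 ± 0.732 TPM (SD, n = 3), levels close to those of Nfkbiz itself. Nearest to Bcl3 were the membrane protein genes Tmem176b and Tmem176a and Tnip3, which encodes an A20-binding inhibitor of NF-κB signaling, at 0.061, 0.066 and 0.066. Tmem176b was about as strongly lower, from 546 ± 16.8 to 215 ± 2.78 TPM, as was Tnip3, from 4.06 ± 0.210 to 1.51 ± 0.0403 TPM. A change of like size follows from choosing genes by this distance, so it is not a separate result. Nfkbiz and Bcl3 were not each other's nearest, since their distance of 0.25 placed Bcl3 at rank 390 for Nfkbiz and Nfkbiz at rank 116 for Bcl3.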

How the data were processed

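RNA of 3 Ctrl and 3 Nfkbiz KO samples of D4M-3A cells, stated by the study to come from independent experiments, was sequenced as paired reads. The authors mapped reads with CLC Genomics Workbench (GRCm39 in the study's methods, GRCm38 in the labels), counting both strands and placing reads with several matches, and deposited raw counts of total and unique gene reads without normalization. The deposited TPM and RPKM values, with decimal commas, come from exon reads. Total gene reads were fitted with edgeR 4.0.16 in R 4.3.3 (TMM, filterByExpr with a minimum count of 10, quasi-likelihood test, Benjamini-Hochberg adjustment over 14419 genes). The full threshold follows the study, whose unit for the difference is not given and was read as TPM. Members are the genes given by name. Pathway genes are named with values for at most 5 a list, by smallest adjusted p, and genes most like Nfkbiz and Bcl3 by distance. Members, lists and tests were chosen with earlier results of these data known. The fit was tested on simulated counts with the same dispersion in both groups, whereas the Ctrl samples here differed more among themselves than the Nfkbiz KO samples. Alternatives were DESeq2 1.42.0, RLE factors, other filters, unique reads, limma 3.58.1 on TPM, a replicate block and samples left out. Same-numbered samples did not deviate together (correlations 0.037, -0.023 and 0.026), so they were not paired. Gene positions come from GENCODE on GRCm39 and promoters from RefSeq windows of GRCm38.p6, placed on GRCm39 by exact match. Depth limits Nfkbid most, and p-values measure only the spread between these samples.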

Additional observations from a re-analysis of the deposited data

How the results depend on the processing

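Of 241 values computed under alternatives, 226 kept their direction and their side of the threshold, stayed within 1 SD of replicates or, for counts, within 1.5 times the count reported, 0 reversed, 4 passed the threshold only under the alternative, and 11 moved. With limma on log2(TPM + 1), 2 members were called higher, the second being Nfkbid (0.28). Nfkbia (-0.18) was called lower with no filter on low counts (-0.17) and on unique gene reads (-0.18), and leaving out each sample in turn gave -0.23 to -0.10. Samples left out in turn gave 1 to 2 members past the full threshold, 3 to 9 pathway genes higher and 6 to 11 lower. limma on log2(TPM + 1) and on log2(TPM + 0.1) each gave 4 pathway genes lower, with a median change of all genes of 0.06 and 0.08, against -0.02 on gene reads. Within that limit, members called lower went from 2 to 3 with no filter, on unique gene reads and without Ctrl replicate 2. The ratio of the summed family level was 0.820 on RPKM. Leaving out a sample also removes precision; other causes were not tested. With a replicate block, Bcl3 had -1.45, Nfkbiz -0.98 and Nfkbie 0.41, and no member's call changed. Read depth limits Nfkbid, at 74 to 122 reads a sample.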
